A study of Mus musculus with 6 samples.

Results

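The S100 proteins are small calcium-binding proteins, and 10 of their genes are described here in the spinal cord of mice lacking Nogo-A and of wild type mice. The 10 genes were S100a1, S100a4, S100a6, S100a8, S100a9, S100a10, S100a11, S100a13, S100a16 and S100b, and every probe set annotated to one of them was taken, 15 of the 45101 probe sets on the array, which name 18193 genes singly. Of these, 14 were annotated to 1 gene, and the only probe set annotated to S100a11 also named a pseudogene and a predicted gene. In all, 14 of the 15 probe sets passed the filter on low signal, 13 of them annotated to 1 gene. The genes were proposed with earlier results of the comparison of the genotypes known, so the differences between genotypes at these probe sets are given as a description and are not counted as evidence.

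The study measured whole spinal cord of 3 Nogo-A knockout mice and 3 wild type mice on 1 Affymetrix Mouse 430 2.0 array each. All 6 animals were untreated C57Bl/6 males aged 4 months. Nogo-A, the longest protein made from Rtn4, sits in oligodendrocyte membranes and in certain neurons and inhibits the growth of axons. The labels do not say how the knockout was made, nor whether the wild type mice were littermates. The p-values measure only the spread between these samples.

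S100 proteins carry a pair of EF-hands, helix-loop-helix folds that hold calcium, and mostly work as dimers. On binding calcium most of them expose a surface that grips target proteins, such as annexins, kinases and cytoskeletal proteins, while S100a10 keeps this open shape without calcium. Some are also released from cells, where S100b, S100a8 and S100a9 act on receptors such as RAGE and TLR4. In the nervous system S100b is the classic protein of astrocytes and Schwann cells, S100a4 and S100a6 are found in some astrocytes, Schwann cells and fibroblasts, and S100a8 and S100a9 fill the cytoplasm of neutrophils.

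The genotypes and the tissue were checked first. The Rtn4 probe set 1437224_at had signals of 78.2, 9.17 and 5.08 on the knockout arrays, against 3560, 2790 and 2802 on the wild type arrays, and the other 4 Rtn4 probe sets had higher mean signals in knockout. Mbp, a protein of myelin, read 46224 to 52806 in knockout and 38048 to 40152 in wild type, and Nefl, a neurofilament of large axons, read 28689 to 30931 in knockout and 23446 to 28010 in wild type. Wild type replicate 3 stood apart, with hybridization controls at 0.731-fold those of the other arrays and a mean correlation with them of 0.930, against 0.952 to 0.961 for the other 5 arrays. Its median signal was 195.6, against 144.1 to 149.3 in knockout and 148.2 and 169.5 on the other wild type arrays. Dividing each array by its median, as the series design states, therefore put the middle of the log2 changes over all 23525 tested probe sets at 0.23, whereas it was 0.0079 with the deposited scaling and 0.02 after quantile normalization. Changes below are given relative to this median change and are called relative log2 changes, knockout minus wild type. The deposited scaling and the division by medians give the same relative change. Skeletal muscle RNA also differed between arrays, with summed signals of 12 muscle genes of 25124 on knockout replicate 2 and 13681 on wild type replicate 3, against 6741 to 7892 on the other 4 arrays.

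None of the 14 tested S100 probe sets passed an adjusted p of 0.05, and 0.00425% of all tested probe sets did (limma, Benjamini-Hochberg). Their adjusted p-values lay between 0.382 and 0.626. At an unadjusted p under 0.05, 10 of 14 were higher in knockout, beside 11.9% of all tested probe sets, and 0 were lower, beside 1.13%. Under the deposited scaling these counts were 7 and 0 of 14, beside 4.31% and 3.98% of all, and after quantile normalization 6 and 0, beside 3.69% and 2.81%. In 7 of 14 every deposited knockout signal lay above every wild type signal, which held for 7.85% of all tested probe sets, and in 0 every one lay below, which held for 6.62%. After division by array medians the groups were apart with knockout above in 9 of 14, beside 19.9% of all, and with knockout below in none, beside 2.07%. S100a4, which is counted as higher at an unadjusted p under 0.05 and as apart under both scalings, passed the filter only through its knockout arrays. Because the genes were chosen with this comparison in view, nothing is read from these shares. The plot of signals by array shows the individual values.

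**Figure D1:**
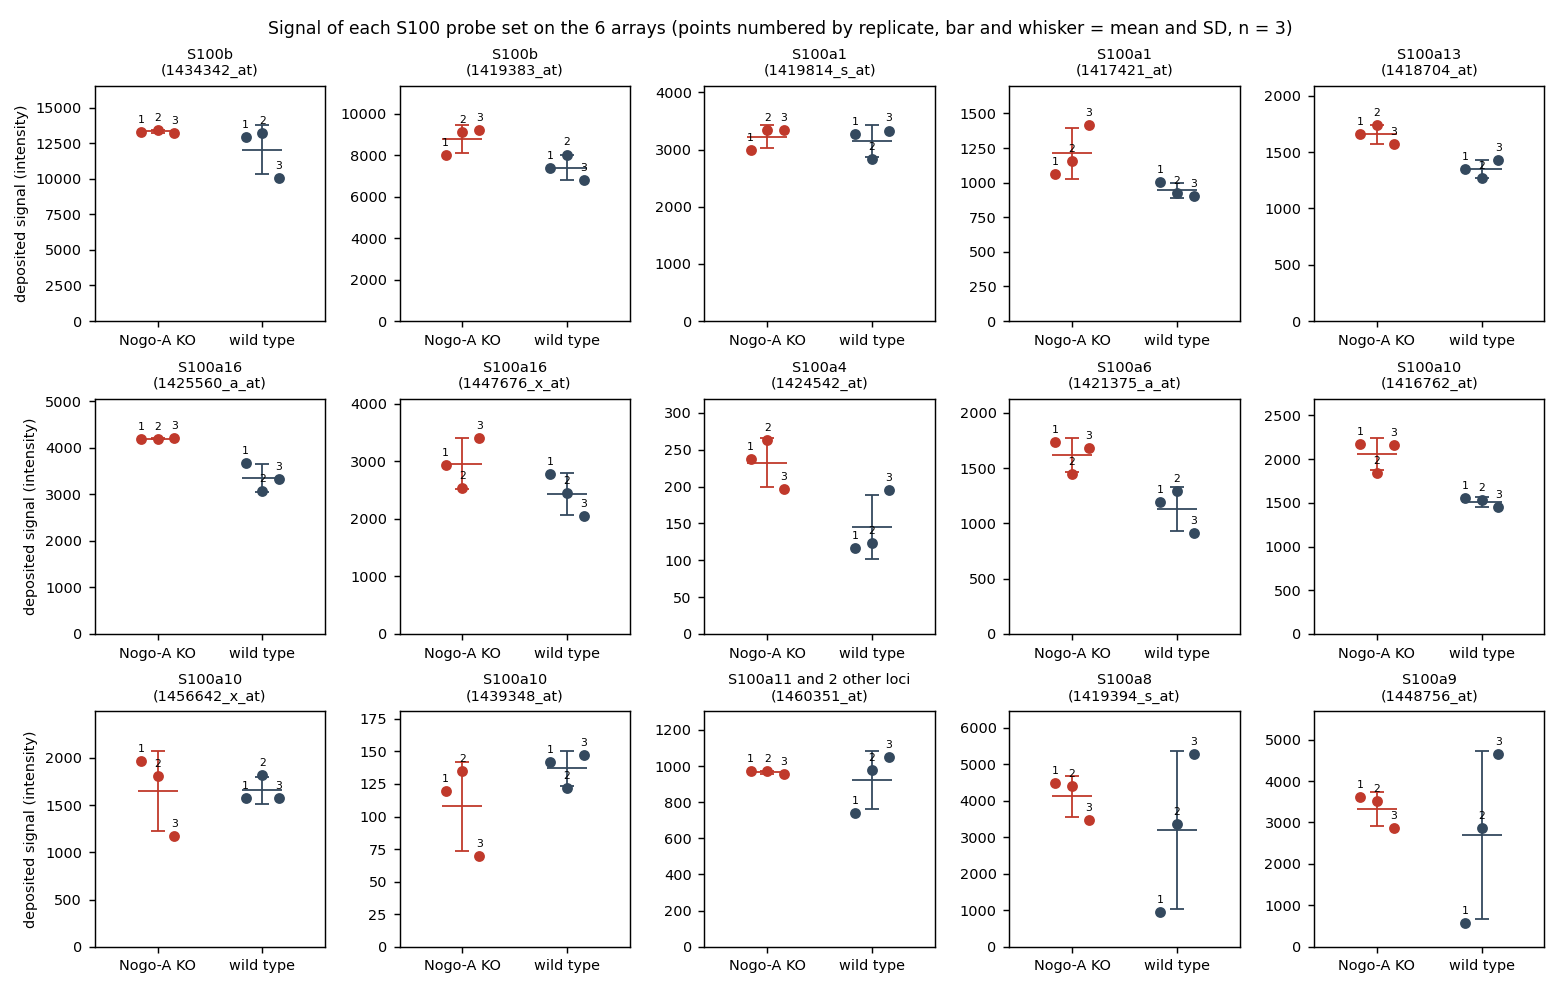
Deposited signal (intensity, linear axis from 0) of each S100 probe set in Nogo-A KO and wild type spinal cord, 3 arrays each, with points numbered by replicate and bar and whisker giving the mean and SD. The knockout points of S100a6, S100a13 and 1416762_at of S100a10 lie above all wild type points, while S100a8 and S100a9 have 1 wild type point far below the other 5.

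Among the glial members, S100b at its probe set 1434342_at differed little between genotypes outside 1 wild type array. S100b is a homodimer of astrocytes, oligodendrocyte lineage cells and Schwann cells and the best known protein of the family. That probe set read 13276, 13470 and 13249 in knockout and 12916, 13200 and 10068 in wild type. Each knockout array lay above each wild type array, but the first 2 wild type replicates were close to the knockout values and only the third was clearly lower. The relative log2 change was 0.15 (SE 0.21), and 0.03 without wild type replicate 3, the array that stood apart. The second probe set, 1419383_at, read 7994, 9115 and 9231 in knockout and 7406, 8036 and 6784 in wild type. There the genotypes overlapped, with knockout replicate 1 just under wild type replicate 2, and the relative log2 change was 0.24 (SE 0.20). After quantile normalization the changes were 0.047 and 0.12.

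S100b is the only member outside chromosome 3, on chromosome 10 of the RefSeq assembly GRCm38.p6, where it lies between Prmt2 and Dip2a. Its promoter is shown because it is set apart from the clustered genes in position too. The window runs from 250 bases before to 50 after the RefSeq start (chr10:76253586-76253885, + strand), and the capitals mark a CCAAT box on either strand, which 37.4% of 32851 RefSeq promoter windows hold.
S100b promoter: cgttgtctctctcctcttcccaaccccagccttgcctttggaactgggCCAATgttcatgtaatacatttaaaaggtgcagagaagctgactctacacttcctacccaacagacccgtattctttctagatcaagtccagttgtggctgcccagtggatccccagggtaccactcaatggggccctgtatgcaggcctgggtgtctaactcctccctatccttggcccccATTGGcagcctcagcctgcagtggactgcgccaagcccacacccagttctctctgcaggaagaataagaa

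S100a13 and 1 of the 2 probe sets of S100a16 separated the genotypes, with relative changes that kept their direction whichever array was left out. The other S100a16 probe set, the S100b probe sets and 1417421_at of S100a1 kept their direction too. S100a13 helps export growth factors such as Fgf1 that have no signal peptide. It read 1658, 1741 and 1574 in knockout and 1351, 1270 and 1428 in wild type. The groups did not overlap, and the relative log2 change of 0.29 (SE 0.18) stayed between 0.23 and 0.34 when any 1 array was left out. S100a16, a widely expressed member that is abundant in astrocytes, read 4189, 4185 and 4211 at probe set 1425560_a_at in knockout and 3664, 3060 and 3332 in wild type. The coefficient of variation was 0.334% in knockout and 9.03% in wild type, and the relative log2 change was 0.32 (SE 0.19). At its other probe set, 1447676_x_at, signals were 2940, 2533 and 3407 in knockout and 2781, 2452 and 2047 in wild type. These overlapped at knockout replicate 2. The relative log2 change was 0.28, and it was 0.17 without knockout replicate 3, 0.17 without wild type replicate 3 and 0.39 without knockout replicate 2.

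S100a1, which binds the ryanodine receptor and the calcium pump of muscle and is also made in neurons, gave different changes at its pair of probe sets. At 1417421_at it read 1062, 1153 and 1417 in knockout and 1005, 926 and 904 in wild type. All knockout arrays lay above all wild type arrays, most of all replicate 3, and the relative log2 change was 0.34 (SE 0.20), and 0.22 without knockout replicate 3. At 1419814_s_at it read 2992, 3344 and 3345 in knockout and 3278, 2830 and 3332 in wild type, with a relative log2 change of 0.03 that was -0.05 after quantile normalization and -0.06 without wild type replicate 2. There the genotypes overlapped. The suffix _s_at marks a probe set whose probes can match more than 1 transcript. The muscle-rich arrays, knockout replicate 2 and wild type replicate 3, were not the highest of their genotype at 1417421_at, whereas at 1419814_s_at wild type replicate 3 was the highest of its genotype. The part of muscle RNA in S100a1 was not tested.

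S100a1 and S100a13 lie head to head on chromosome 3, with RefSeq starts 105 bases apart on opposite strands. Their promoter windows share 204 bases, so a single window is shown for both, that of S100a13 (chr3:90514185-90514484, GRCm38.p6, + strand), with the shared stretch in capitals. At 1417421_at of S100a1 and at S100a13 knockout lay above wild type on all arrays, and at 1419814_s_at of S100a1 it did not.
S100a13 promoter: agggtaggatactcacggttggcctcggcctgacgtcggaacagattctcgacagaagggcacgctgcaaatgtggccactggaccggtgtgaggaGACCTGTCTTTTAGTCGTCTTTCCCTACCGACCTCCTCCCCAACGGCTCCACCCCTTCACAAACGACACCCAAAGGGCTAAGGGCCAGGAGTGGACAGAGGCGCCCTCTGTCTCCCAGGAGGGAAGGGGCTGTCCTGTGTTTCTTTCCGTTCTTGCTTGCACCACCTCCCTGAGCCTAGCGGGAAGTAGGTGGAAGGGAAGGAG

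Of the members known from nerve roots, meninges and vessels, S100a4, S100a6 and 1 of 3 probe sets of S100a10 separated the genotypes. S100a6, also called calcyclin, binds annexins and the ubiquitin ligase partner Cacybp. It read 1736, 1445 and 1677 in knockout and 1195, 1293 and 911 in wild type. The groups did not overlap, and wild type replicate 3 was the lowest array. The relative log2 change was 0.52 (SE 0.22), and 0.38 without wild type replicate 3. S100a4, which binds non-muscle myosin and marks fibroblasts and some glia, was dim. It read 238, 263 and 197 in knockout and 116, 123 and 195 in wild type. The groups did not overlap, but knockout replicate 3 and wild type replicate 3 were close together. On all 3 wild type arrays the signal was below that array's own median, so the level in wild type is only bounded. The mean knockout signal was 1.58-fold the array medians, a value that still holds the median change of 0.23. The array median is the cut of the filter here, not a limit of detection. The fitted relative log2 change was 0.71 (SE 0.31), 0.95 without wild type replicate 3 and 0.56 without wild type replicate 1.

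S100a10 forms a tetramer with Anxa2 that carries channels and the plasminogen system to the cell surface. Its probe set 1416762_at read 2168, 1842 and 2163 in knockout and 1558, 1534 and 1449 in wild type. The groups did not overlap, and the relative log2 change was 0.43 (SE 0.19), between 0.39 and 0.51 with any 1 array left out. The other probe sets of S100a10 did not follow it. At 1456642_x_at signals were 1973, 1814 and 1169 in knockout and 1574, 1819 and 1576 in wild type, a relative log2 change of -0.04. The groups overlapped, and the low value was on knockout replicate 3, without which the change was 0.18. The remaining one, 1439348_at, read 119, 135 and 69.3 in knockout and 142, 122 and 147 in wild type, under the array median on all 6 arrays, and it did not enter the test. The mean over the 3 probe sets was -0.0054, against 0.43 at 1416762_at alone, so the direction for S100a10 depends on the probe set. The suffix _x_at marks a probe set with probes that can bind unrelated transcripts.

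The probe set that names S100a11 together with S100a11-ps and Gm12854, 1460351_at, read 970, 971 and 956 in knockout and 739, 981 and 1048 in wild type. The genotypes overlapped, and wild type replicate 1 alone was low. Its signal is not assigned to S100a11, a partner of annexin A1, because the pseudogene cannot be told apart. The relative log2 change was 0.07, and -0.09 without wild type replicate 1.

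Markers of other cells were set beside these genes. In whole tissue, fewer cells of a type and less RNA per cell cannot be told apart. Of 12 genes of fibroblasts and meninges, all tested, 9 lay above the median change, with a median relative log2 change of 0.26 and summed signals of 17740 to 20596 in knockout and 15074 to 16888 in wild type. Collagen genes led it, with Col1a1 at 0.97 and Col1a2 at 0.62, whereas Lum was at -0.48. Schwann cell genes had 8 tested of 12, a median of 0.18 and summed signals of 19689 to 26916 in knockout and 16619 to 19374 in wild type, mostly from Pmp22, which is also expressed outside Schwann cells. Of these 8 genes 5 lay above the median change, whereas Egr2 was at -0.33 and Drp2 at -0.10. Of the 12 astrocyte genes 7 lay above the median change, with a median of 0.033 and summed signals of 113803 to 116092 in knockout and 100663 to 122896 in wild type. The oligodendrocyte genes had a median of 0.16 over 11 members, the endothelial genes -0.029 over 9, and the microglia and macrophage genes -0.063 over 11. Neuron genes had a median of 0.17, with all 11 tested genes above the median change. Their summed signals were 127102 to 131922 in knockout and 106336 to 124613 in wild type. Over all tested probe sets 50% lie above the median change. None of these genes passed the adjusted threshold, and the part of these cells in the S100 differences was not tested.

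S100a8 and S100a9 spread widely among the wild type arrays. Together they form calprotectin, the zinc- and manganese-binding complex of neutrophils and monocytes. S100a8 read 4488, 4402 and 3471 in knockout and 953, 3357 and 5291 in wild type. S100a9 read 3619, 3511 and 2866 in knockout and 583, 2864 and 4646 in wild type. In both genes wild type replicate 1 was far below the other 5 arrays, wild type replicate 3 was the highest, and the 6 arrays came in the same order. The coefficient of variation was 13.7% in knockout and 67.9% in wild type for S100a8, and 12.2% and 75.5% for S100a9. The relative log2 changes of 0.66 and 0.74, with SEs of 0.36 and 0.43, rested on wild type replicate 1. Without it they were -0.06 and -0.16, and without wild type replicate 3 they were 1.19 and 1.36.

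Other genes of neutrophils were also low on wild type replicate 1. Ngp, a granule protein of maturing neutrophils, read 1872, 1795 and 1896 in knockout and 377, 1332 and 2021 in wild type. Ltf, which encodes lactoferrin, read 502, 494 and 442 in knockout and 135, 379 and 588 in wild type. Of 8 tested neutrophil genes 6 were lowest on wild type replicate 1, the others being Mmp9 and Csf3r. Their median relative log2 change was 0.62, and 4 of the 8 were higher in knockout at an unadjusted p under 0.05, beside 11.9% of all tested probe sets. The relative log2 changes were 0.88 for Ngp, 0.68 for Camp, 0.62 for Mpo and 0.61 for Ltf, against 0.08 for Mmp9, -0.30 for Lcn2 and -0.47 for Csf3r. Without wild type replicate 1 they were 0.16 for Ngp, 0.29 for Camp, 0.20 for Mpo and 0.0012 for Ltf. Elane, which encodes neutrophil elastase, read 142, 240.0 and 160 in knockout and 18.0, 137 and 28.0 in wild type, with all 3 wild type signals under the array median. Its fitted relative log2 change was 2.09, and 1.49 without wild type replicate 1. Elane, Mpo and Csf3r passed the filter only through knockout arrays, and all of them are in the median of 0.62. Elane is also among the 4 genes counted as higher. Summed signals of the 12 neutrophil genes with a probe set were 4574, 4448 and 4282 in knockout and 1627, 3906 and 6153 in wild type. Cxcr2, Stfa2l1 and Padi4 lay under the array median on all 6 arrays. Erythroid genes had 4 probe sets, whose summed signals of 725 to 819 in knockout and 490 to 880 in wild type were also lowest on wild type replicate 1. Only these 4 of the 10 listed genes could be used, and Hba-a1 and Epb42 lay under the array median on all 6 arrays. Alas2 read 409 on wild type replicate 1 and 414 on wild type replicate 2. Slc4a1, the anion exchanger of red cells, read 188, 256 and 238 in knockout and 57.03, 71.5 and 80.8 in wild type. All 3 wild type signals were under the array median, so Slc4a1 too passed the filter only through knockout arrays. Low sums on wild type replicate 1 were not confined to these lists. Microglia and macrophage genes summed to 11961 there, against 12395 to 13816 in knockout and 16671 and 16924 on the other wild type arrays. Genes of phagocytes, described below, summed to 1563 there, against 1858 to 2653 on the other arrays. Muscle sums were lowest there too, whereas astrocyte, oligodendrocyte and Schwann cell sums were lowest on wild type replicate 3. The part of blood left in the tissue in S100a8 and S100a9 was not tested.

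**Figure D2:**
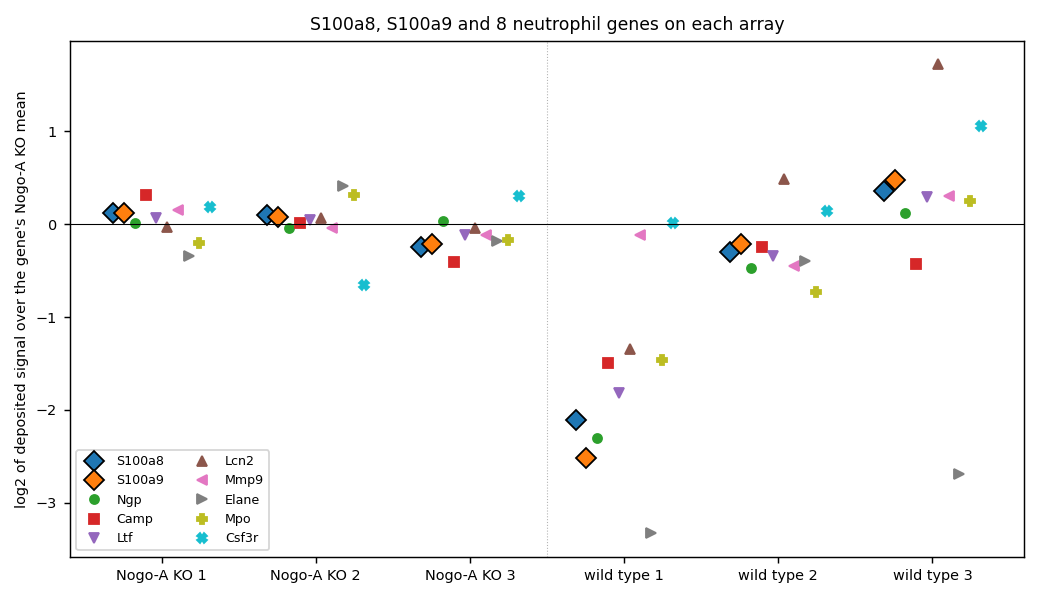
Deposited signal of S100a8, S100a9 and 8 tested neutrophil genes on each array, as log2 of the signal over the gene's mean in the 3 Nogo-A KO arrays, with 1 symbol per gene. On wild type replicate 1 S100a8, S100a9 and 6 of the 8 genes are at their lowest, and on wild type replicate 3 S100a8 and S100a9 lie above all knockout arrays.

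The promoters of S100a8 and S100a9 are shown because these genes kept the same order over the arrays. They neighbour each other on chromosome 3 in the RefSeq table, on opposite strands. The capitals mark matches on either strand to the TATA box TATAAA, the C/EBP site TTNCNNAA, the PU.1 core GAGGAA and the GC box GGGCGG. In S100a8 a PU.1 core abuts the TATA box and overlaps it by no base. Both windows hold the letters TATAAA, as do 13.6% of all 32851 promoter windows of this length, and a C/EBP site, as do 40.7%. Counted from the RefSeq start, TATAAA begins at -30 in S100a8, whereas in S100a9 it begins at 1, the first base of the annotated transcript. The PU.1 core, in 28.3% of all windows, has 2 matches in S100a8 and none in S100a9, and the GC box, in 35.7%, has 1 in S100a9. Among the other members only S100a4 holds TATAAA, beginning at -31, with the windows of 9 members searched. The windows are chr3:90668821-90669120 on the + strand and chr3:90695672-90695971 on the - strand of GRCm38.p6.
S100a8 promoter: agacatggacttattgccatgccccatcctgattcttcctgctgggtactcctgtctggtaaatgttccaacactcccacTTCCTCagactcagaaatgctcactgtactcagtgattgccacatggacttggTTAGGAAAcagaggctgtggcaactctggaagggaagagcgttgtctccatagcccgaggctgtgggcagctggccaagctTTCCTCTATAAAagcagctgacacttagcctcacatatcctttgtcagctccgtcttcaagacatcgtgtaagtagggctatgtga
S100a9 promoter: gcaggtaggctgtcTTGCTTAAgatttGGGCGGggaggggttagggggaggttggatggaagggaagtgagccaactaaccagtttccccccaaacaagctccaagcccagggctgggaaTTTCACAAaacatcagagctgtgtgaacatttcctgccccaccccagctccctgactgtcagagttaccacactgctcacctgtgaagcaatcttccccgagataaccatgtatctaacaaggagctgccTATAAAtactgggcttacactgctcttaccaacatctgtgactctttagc

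The relative changes were compared across scalings and with single arrays left out. Of the 15 probe sets 13 had a relative log2 change above 0, and 12 had one after quantile normalization, where 1419814_s_at of S100a1 turned. Without wild type replicate 1 the number was 10, because S100a8, S100a9 and 1460351_at turned. The adjusted p-values also depended on that array. Without it 666 of 23069 tested probe sets passed in limma, among them 4 of the 15 S100 probe sets. These were 1416762_at of S100a10, 1425560_a_at of S100a16, S100a13 and S100a6, at adjusted p-values of 0.0481 to 0.0496. With the deposited scaling and that array left out, 9 probe sets passed and none was an S100 probe set.

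**Figure D3:**
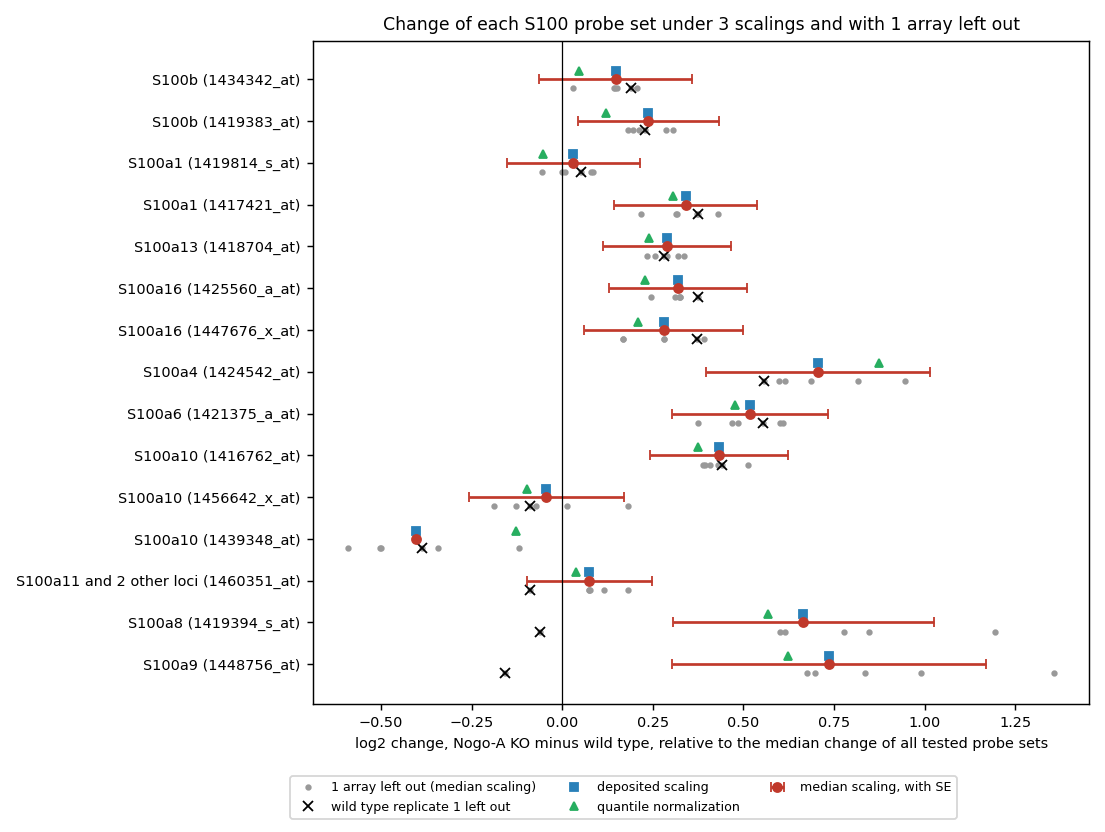
Relative log2 change (Nogo-A KO minus wild type) of each S100 probe set, with the standard error for those tested, under division by the array median, the deposited scaling and quantile normalization, and with 1 array left out. Leaving out wild type replicate 1, drawn as a cross, puts S100a8 at -0.06 and S100a9 at -0.16, while S100a6 at 0.55 and 1416762_at of S100a10 at 0.44 stay near their values with all arrays.

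Most other genes of the family were dim. Of 9 further genes named S100 or binding S100 proteins, 6 were analysed here. S100a3, S100a5, S100a14, S100a7l2 and S100g did not pass the filter on low signal. S100a3 read 40.3, 74.9 and 72.4 in knockout and 47.2, 44.6 and 76.8 in wild type, and S100a7l2 read 2.14 to 26.8 in knockout and 3.28 to 12.2 in wild type. S100g, the vitamin D-dependent calcium buffer of gut and kidney, read 2.13 to 4.08 in knockout and 2.94 to 30.4 in wild type, and S100a14 read 3.91 to 9.30 in knockout and 4.98 to 26.9 in wild type. S100a5, known from olfactory neurons, read 30.2, 75.8 and 87.0 in knockout and 93.5, 89.8 and 211 in wild type, with all knockout arrays below all wild type arrays as deposited and an overlap after division by array medians. S100pbp, which encodes an S100-binding protein, read 472, 479 and 476 in knockout and 445, 345 and 513 in wild type, and its adjusted p was 0.392 in limma. Its dim probe set 1453754_at read 120.0, 92.7 and 65.1 in knockout and 90.9, 79.8 and 201 in wild type. S100a3, S100a5 and S100a14 lie among the described genes on chromosome 3, in the order S100a1, S100a13, S100a14, S100a16, S100a3, S100a2, S100a4, S100a5, S100a6, S100a7a, S100a8 and S100a9.

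Receptors and partners of S100 proteins were taken from 5 further lists, and 0 of their 51 tested genes passed over all probe sets (limma). At an unadjusted p under 0.05, 10 of the 51 were higher in knockout and 0 lower, beside 11.9% and 1.13% of all tested probe sets. These counts take 1 probe set a gene, the brightest tested. The receptors RAGE, encoded by Ager, and TLR4 were dim. Ager read 58.1, 26.9 and 9.64 in knockout and 102, 41.6 and 106 in wild type, under the array median on all 6 arrays, and Tlr4 was under it on 5 of 6. Bsg, a receptor of S100a9, read 10868 ± 341 in knockout and 10010 ± 719 in wild type (SD, n = 3 each), a relative log2 change of 0.11 that was -0.033 after quantile normalization. Emb, Alcam and Fgfr1, other receptors named for the family, had relative log2 changes of 0.15, 0.18 and 0.15, with adjusted p-values of 0.383 to 0.386 in limma.

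Of the annexins and their associates 5 of 10 tested genes had an unadjusted p under 0.05, all higher in knockout, beside 11.9% of all tested probe sets higher and 1.13% lower. These p-values are not relative to the median change of 0.23, and the median relative log2 change of the 10 genes was 0.21. Anxa2, the partner of S100a10, read 3181, 2655 and 2588 in knockout and 2040, 1920 and 2333 in wild type. The groups did not overlap, and the relative log2 change was 0.41 with an SE of 0.18 (limma adjusted p = 0.382). Its dim probe set 1437692_x_at ran the other way, with 72.8 ± 57.4 in knockout and 208 ± 109 in wild type (SD, n = 3 each). That probe set passed the filter only through wild type arrays. Ahnak, a giant scaffold that binds the complex of S100a10 and Anxa2, read 2918, 2485 and 2332 in knockout and 2334, 1841 and 2118 in wild type. The lowest knockout array was just under the highest wild type array, and the relative log2 change was 0.29. Anxa6 and Anxa3 had relative log2 changes of 0.30 and 0.25, and Plgrkt, a plasminogen receptor, one of 0.32. Plat, the plasminogen activator that S100a10 binds, was at -0.14 and Anxa4 at -0.15. Without wild type replicate 1, Anxa2, Ahnak and a second Anxa6 probe set, 1429246_a_at, passed in limma at an adjusted p of 0.0481 each, and with the deposited scaling and that array left out none did.

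Of the intracellular targets 5 of 21 tested genes had an unadjusted p under 0.05, all higher in knockout, beside the same 11.9% and 1.13% of all tested probe sets and with the same median change of 0.23 in the p-values. The median relative log2 change of the 21 genes was 0.056. Gfap, the intermediate filament of astrocytes whose assembly S100b inhibits in vitro, read 7761, 7542 and 11552 in knockout and 6146, 3726 and 9057 in wild type. The groups overlapped, both genotypes spread widely, and the relative log2 change was 0.56 with an SE of 0.26 (limma adjusted p = 0.382). Of its other probe sets, 1426509_s_at had a relative log2 change of 0.55 and 1440142_s_at one of -0.14. Ppp5c, a phosphatase that S100 proteins activate, had a relative log2 change of 0.30, with Mapt, the axonal tau protein, at 0.30, and the co-chaperone Fkbp4 at 0.23. Cacybp, Sugt1 and Stk38, partners of S100a6 and S100b, were at 0.0051, -0.01 and 0.06. Myh9, the myosin bound by S100a4, was at -0.23.

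Among channels and calcium pumps, 0 of 7 tested genes had an unadjusted p under 0.05 in limma. Of all tested probe sets 11.9% were higher in knockout at that level and 1.13% lower. A list of 7 genes is too short to be set apart from these shares. Atp2a2, the calcium pump bound by S100a1, had a relative log2 change of 0.18 and Htr1b, a serotonin receptor that binds S100a10, one of 0.16. Atp2a1, the pump of skeletal muscle, read 164, 1128 and 159 in knockout and 90.2, 201 and 600.4 in wild type, highest in each genotype on the muscle-rich array. Kcnk3, a potassium channel carried to the surface with S100a10, spread from 34.97 to 246 in knockout and from 21.8 to 170 in wild type. It passed the filter only through knockout arrays, and its relative log2 change was 1.07 with an SE of 0.92. Of phagocyte genes tied to S100a8 and S100a9, 7 of 12 passed the filter, with a median relative log2 change of 0.036. None of the 7 had an unadjusted p under 0.05 in limma, beside the same shares of all tested probe sets. Itgb2, the integrin of leukocytes, read 279, 319 and 289 in knockout and 202, 201 and 380 in wild type, and the groups overlapped. Rac2, Itgam and Cyba had relative log2 changes of 0.28, 0.15 and 0.02, and their deposited signals overlapped too. After division by array medians Itgam was apart with knockout above, as were 19.9% of all tested probe sets. Rac2, Itgam and Csf3r, which are among the 7, passed the filter only through knockout arrays.

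**Figure D4:**
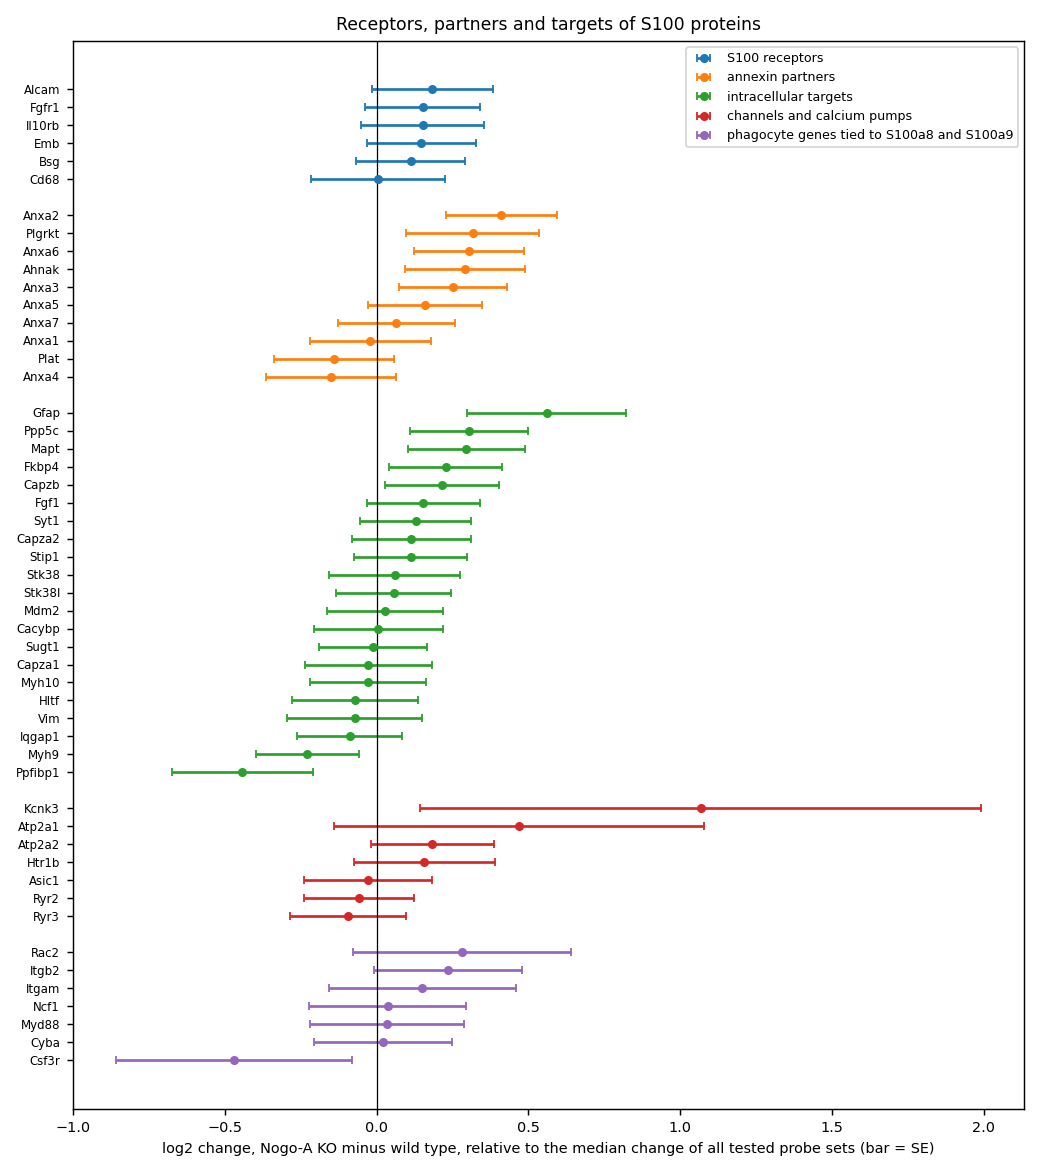
Relative log2 change (Nogo-A KO minus wild type) with its standard error for each tested receptor, annexin partner, intracellular target, channel or pump, and phagocyte gene, grouped by list and ordered by change. Anxa2 at 0.41 and Gfap at 0.56 lead their lists, and none of the genes passed the adjusted threshold.

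The genes with the most similar pattern over the 6 arrays were looked up for 1 member of each group, by the Pearson correlation of log2 signals among 19925 or 19926 probe sets with a gene name. With 6 arrays that share their scaling such values are a description, and many probe sets reach high values. For S100b they were Pfn2, Zfp280c and Tob1, each at 0.998 to 0.999. For S100a6 they were Nrip3, Rnf7 and Nfasc, at 0.997 to 0.999. For S100a8 the first was S100a9 at 0.996, followed by the neutrophil gene Ltf at 0.995 and Dnajb12 at 0.990.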

How the data were processed

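The deposited intensities, on a linear scale, came from GCOS 1.4 with MAS 5.0, per the submitters' processing notes, and the design text names both too. Each array's mean without the lowest and highest 2% of values was 500.0, so the authors had scaled the intensities to a common mean, and the division by medians in GeneSpring 7.2 that the design text names was not yet in them. RNA of all animals was extracted on the same day, per the labels' protocols, and neither scan dates nor batches are given in the sources used here, nor is a genome build.

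Intensities were divided by each array's median and taken to log2. With 64 control probe sets removed, a probe set entered the test if it reached its array's 50th percentile on 2 or more of the 3 arrays of either genotype. Genotypes were compared with limma 3.58.1 in R 4.3.3 (lmFit and eBayes with an intensity trend), with Benjamini-Hochberg adjustment over all tested probe sets and a threshold of 0.05. Arrays give no read depth, and their number limits the precision. An exact permutation test of 3 against 3 arrays cannot go below 0.1. The pipeline was tested on simulated data.

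Symbols are those of the platform annotation, brought up to date with RefSeq's gene table, and a probe set that names several genes was assigned to none. Promoter windows are RefSeq's (GRCm38.p6).

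The members and lists were chosen with earlier results of these data known. Named were every probe set of the members and of other S100 genes, up to 4 genes of smallest p in each partner list, genes past the threshold, and the 3 genes most alike S100b, S100a6 and S100a8. Other genes in the text were chosen after their values were seen. A listed gene is given at its brightest tested probe set, or its brightest one where none was tested.

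Alternatives were quantile normalization, the deposited scaling, other filters, an offset, no trend, a replicate block, the methods' t-test and each array left out. The deposited scaling without wild type replicate 1 or 3 was chosen after seeing the data.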

Additional observations from a re-analysis of the deposited data

How the results depend on the processing

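The number of probe sets that passed the adjusted threshold in limma was 1 with all arrays, the Rtn4 probe set, and it depended on the setting. It was 17 with the 75th percentile filter, 2 with the offset and 2 without the trend, and 215 with the replicate block. Leaving out single arrays gave 1 to 666, and the deposited scaling gave 9 without wild type replicate 1 and 3 without wild type replicate 3. The methods' t-test counted probe sets with a p under 0.05 and a fold of at least 1.2, on signals divided by array medians. It gave 2181 of 23525 tested probe sets, 1964 higher in knockout and 217 lower, and 0 after Benjamini-Hochberg adjustment. Before adjustment it counted 5 of the 14 tested S100 probe sets. The median change of 0.23 was not taken out of these counts. Genes of the partner lists and other S100 genes had 0 probe sets past the threshold with all arrays, and 0 to 5 with single arrays left out. The number of S100 probe sets above the median change was 12 to 14 under all settings with 6 arrays and 10 to 13 with an array left out. The replicate numbers were not treated as pairs, because the correlations of same-numbered deviations were -0.035, 0.074 and 0.11. With the replicate block, where 215 of 23525 tested probe sets passed, 3 of the 14 tested S100 probe sets did. These were S100a6, S100a8 and S100a9, at adjusted p-values of 0.0334, 0.0103 and 0.0023 (limma). Of the changes of single S100 probe sets under other settings, 236 moved by less than the spread between replicates and 8 by more, at S100a4, at 1460351_at and at S100a10 when its probe sets were averaged. The 236 do not measure stability. The deposited scaling, the fit without the trend and the replicate block cannot move a relative change, and their values are among the 236. Also among them are S100a8 and S100a9 without wild type replicate 1, which changed sign within their wide replicate spread. The causes were not tested. The number of arrays, and signals near the array median such as those of S100a4, limit what these data can show.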
